A study of Mus musculus with 18 samples.

Results

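The 10 genes described here are Ehd3, Fgd5, Capn2, Fam167a, Prr9, Plet1, Emb, Lipk, Thy1 and Pla2g4e, genes that are less often studied in the context of oncogenic Hras in skin. They were picked by symbol, from 20655 genes in a table of reads over coding sequences, because their values were higher in HrasG12V epidermis than in WT epidermis. All 10 were found, and all 10 passed the filter on low counts in both kinds of library. Their difference from WT is therefore the reason for their choice and is given as a description. Their response to an shRNA against Eif2b5 was not a criterion of the choice and was tested. HrasG12V libraries with and without this shRNA did enter the choice, however, and earlier results of these data were known.

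Ribosome footprints, the stretches of mRNA that ribosomes protect from nuclease, and RNA were sequenced from enriched basal cells of mouse epidermis at embryonic day E18.5. Every group carried an shRNA that was injected in utero at E9.5, so no group was uninjected. WT shScram had a scrambled shRNA in mice whose strain label gives the tm4 reporter allele ACTB-tdTomato,-EGFP at Gt(ROSA)26Sor. HrasG12V shScram had the scrambled shRNA in mice of the strain FR-HrasG12V, and HrasG12V shEif2b5 had an shRNA against Eif2b5 in the same strain. Each group held 3 libraries of each kind, 18 in all, and there was no WT group with the Eif2b5 shRNA. Strain and genotype cannot be told apart, and what switches on the HrasG12V allele, how many animals gave each library and whether replicates are separate animals are not given in the sources used here. The p-values therefore measure only the spread between these libraries.

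HRAS is a small GTPase of the cell membrane that passes growth factor signals to the RAF, MEK and ERK kinases, and the G12V change keeps it bound to GTP and active. Among the transcription factors that ERK signalling acts on are the AP-1 and ETS families. EIF2B5 is the catalytic subunit of eIF2B, which reloads the initiation factor eIF2 with GTP and so sets how often ribosomes start on an mRNA. The 10 genes are not 1 pathway: they encode surface proteins (Plet1, Thy1, Emb), lipid enzymes (Lipk, Pla2g4e), proteins of membrane traffic, small GTPase control and proteolysis (Ehd3, Fgd5, Capn2), a proline-rich protein of the epidermal differentiation complex (Prr9) and Fam167a.

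Each footprint library held 3319175 to 4933298 counts over coding sequences, and each RNA library 1771365 to 5505386. All 9 basal keratinocyte markers that were checked, Krt5 and Krt14 among them, were present, but so were spinous markers, whose summed RNA (34138 to 98182 CPM, counts scaled to library size) exceeded that of the basal markers (8930 to 17524 CPM). In such bulk libraries more cells of a type and more RNA per cell cannot be told apart. The Eif2b5 coding sequence itself did not differ by the test between HrasG12V shEif2b5 and HrasG12V shScram. Its log2 difference was -0.16 in footprints (edgeR quasi-likelihood test, adjusted p = 0.994) and -0.68 in RNA (adjusted p = 0.257), with 388 CPM in HrasG12V shScram RNA library 2 against 127 and 145 CPM in the other two. Library 2 also had the fewest counts of the RNA libraries, 1771365. It was itself extreme on their second principal component, at -31.4 where the others lay between -12.6 and 21.2. HrasG12V shScram RNA libraries 1 and 3 lay apart on the first principal component of the RNA libraries, at 40.8 and 40.3 where the other 7 lay between -26.8 and 1.3. In a fit without these libraries, which leaves 1 RNA library in that group, the Eif2b5 RNA difference was -1.52 and passed (adjusted p = 6.98e-05), since library 2 is the one that stays. Other RNA and translation efficiency results are given without them where a call, a sign or the size changed.

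Of the 10 genes, 7 had a promoter in the RefSeq table used (GRCm38.p6, the build of mm10), namely all but Fam167a, Lipk and Thy1. The 250 bases before the RefSeq start of transcription were searched on both strands. The motifs were the AP-1 motif TGANTCA, the ETS core CCGGAA and the TEAD motif GGAATG, which do not overlap each other in the matches found. In Emb the RefSeq start lay 12037 bases downstream of the gene start annotated by GENCODE, in Ehd3 707 and in Fgd5 87, so these windows lie inside or partly inside the GENCODE genes. An AP-1 match was present in 3 of the 7, Plet1, Prr9 and Capn2, and in 6.87% of 27025 promoters of the same length. The ETS core was in 0 of the 7 and 12.2% of all promoters, and the TEAD motif in 0 of the 7 and 12.6%. The 3 windows with a match are shown because AP-1 is one of the factors that ERK signalling acts on. They are chr9:50494275-50494524 on the plus strand for Plet1, chr3:92123948-92124197 on the minus strand for Prr9 and chr1:182517611-182517860 on the minus strand for Capn2. Each is written 5′ to 3′ in the direction of its gene, with the AP-1 match in capitals.
Plet1: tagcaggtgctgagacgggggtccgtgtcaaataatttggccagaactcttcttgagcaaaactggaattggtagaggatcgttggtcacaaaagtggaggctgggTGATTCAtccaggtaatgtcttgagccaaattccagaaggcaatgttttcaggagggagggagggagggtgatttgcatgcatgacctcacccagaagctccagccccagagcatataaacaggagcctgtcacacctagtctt
Prr9: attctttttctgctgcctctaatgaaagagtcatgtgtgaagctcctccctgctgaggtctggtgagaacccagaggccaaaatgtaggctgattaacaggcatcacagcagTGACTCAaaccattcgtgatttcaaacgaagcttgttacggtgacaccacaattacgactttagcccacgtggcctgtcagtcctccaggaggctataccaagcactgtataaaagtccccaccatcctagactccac
Capn2: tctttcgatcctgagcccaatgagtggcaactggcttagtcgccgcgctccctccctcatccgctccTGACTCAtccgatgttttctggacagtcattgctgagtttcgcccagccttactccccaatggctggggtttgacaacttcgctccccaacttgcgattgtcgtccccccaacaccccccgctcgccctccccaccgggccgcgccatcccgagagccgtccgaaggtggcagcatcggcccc
The match began at position -144 in Plet1, -138 in Prr9 and -183 in Capn2, counted from the start of transcription. With 7 promoters these shares are a description, and a match does not show that a factor binds there.

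Across the set, the footprint levels of both HrasG12V groups had higher means than WT in all 10 genes, and so did the RNA levels, as the choice requires. In footprints, all 3 HrasG12V shScram libraries lay above all 3 WT libraries in 9 of 10 genes, with Lipk the exception. Such a separation held for 10.4% of all 11448 genes tested in footprints. HrasG12V shEif2b5 footprints lay above WT in the same count, 9 of 10, against 8.32% of all tested genes, and Lipk was again the one that overlapped. RNA lay above WT in 10 of 10 genes for HrasG12V shScram (13.7% of 11096 tested genes) and in 8 of 10 for HrasG12V shEif2b5 (7.68%), where Plet1 and Lipk overlapped. Because these contrasts chose the genes, nothing is read from the counts. The sizes differed within the set: the footprint difference of HrasG12V shScram from WT ran from a log2 of 0.77 in Lipk to 3.11 in Prr9, and the RNA difference from 0.81 in Capn2 to 2.63 in Ehd3. Without the 2 RNA libraries that lay apart the RNA difference ran from 0.97 in Capn2 to 2.35 in Ehd3. The median over the 10 genes was 1.34 in footprints and 1.78 in RNA, beside medians of -0.01 and 0.01 over all tested genes.

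**Figure D1:**
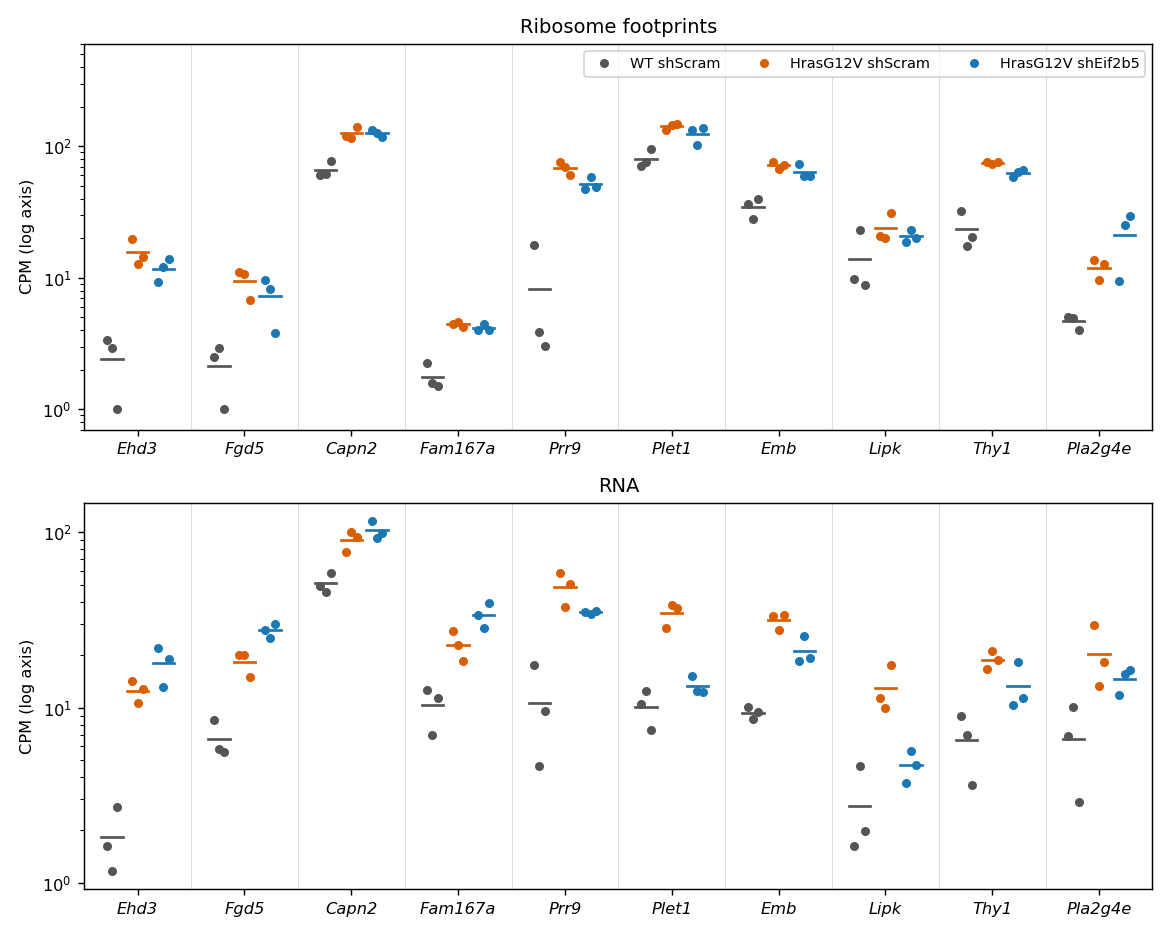
Level of each of the 10 genes in every library, in CPM on a log axis, with ribosome footprints above and RNA below; each point is 1 library, each bar the mean of 3, and colours mark the 3 groups. WT points lie lowest for nearly every gene, Lipk footprints overlap between all 3 groups, and the HrasG12V shEif2b5 RNA points of Plet1 and Lipk lie among or just above the WT points while their footprint points stay near those of HrasG12V shScram.

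Plet1 (9:50494525-50505482, plus strand, coordinates here and below in mm10 from GENCODE vM21) encodes a GPI-anchored surface glycoprotein that marks the upper hair follicle. Its footprint level was 70.3, 75.5 and 94.7 CPM in WT and 134, 145 and 149 CPM in HrasG12V shScram, with 133, 103 and 138 CPM in HrasG12V shEif2b5. All 6 HrasG12V footprint libraries lay above WT, by 1.78-fold with the scrambled shRNA (log2 0.83 (SE 0.14)) and 1.56-fold with the Eif2b5 shRNA. In RNA the levels were 10.5, 12.4 and 7.41 CPM in WT and 28.4, 38.3 and 36.9 CPM in HrasG12V shScram, with 15.2, 12.4 and 12.2 CPM in HrasG12V shEif2b5. RNA was thus high in the scrambled group alone, 3.49-fold above WT, and the shEif2b5 libraries overlapped WT. Between the 2 HrasG12V groups, Plet1 RNA fell by 1.36 on the log2 scale with the Eif2b5 shRNA (SE 0.23, 2.57-fold lower, edgeR adjusted p = 0.00318), with all 3 libraries below all 3 of the scrambled group. Footprints differed by -0.19 (SE 0.14), which did not pass the test (adjusted p = 0.994, 95% interval -0.48 to 0.09). The departure of the footprint from the RNA difference, called the change of translation efficiency here, was 1.16 (SE 0.26) and passed (adjusted p = 0.0232). Without the 2 RNA libraries that lay apart, Plet1 RNA was still called at a log2 difference of -1.52 (adjusted p = 0.0481), while its translation efficiency kept its size, 1.33, and lost the call (adjusted p = 0.237). That call was also lost without HrasG12V shEif2b5 replicate 1 (adjusted p = 0.064) or 3 (0.183) and without HrasG12V shScram replicate 1 (0.094) or 3 (0.144), at log2 values from 1.03 to 1.25. The antisense gene Plet1os shares 76 coding bases with Plet1, and the strand setting of the counting is not given in the sources used here, so a part of these reads may belong to it.

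Thy1 (9:44043384-44048579, plus strand), a GPI-anchored immunoglobulin-family protein, is best known from T cells and fibroblasts. Its footprints were at 32.3, 17.5 and 20.3 CPM in WT and 76.3, 72.9 and 76.6 CPM in HrasG12V shScram, with 58.1, 63.3 and 65.9 CPM in HrasG12V shEif2b5. The 3 groups did not overlap, with WT lowest and the scrambled HrasG12V group highest. RNA values were 8.90, 6.99 and 3.62 CPM, 16.6, 21.1 and 18.6 CPM and 10.4, 18.1 and 11.3 CPM in the same order of groups. Both HrasG12V groups lay above WT in RNA and overlapped each other. HrasG12V shScram was 3.25-fold above WT in footprints and 3.04-fold in RNA, nearly the same size. The difference between the HrasG12V groups was -0.27 (SE 0.16) in footprints and -0.47 (SE 0.29) in RNA, neither past the test (edgeR adjusted p = 0.994 and 0.289). The summed level of 10 T cell markers (Cd3d, Cd3e, Lck and others) was highest in HrasG12V shScram in both readouts, while the shEif2b5 libraries overlapped WT. It was 12.5 to 15.6 CPM in WT footprints, 15.8 to 21.8 CPM in HrasG12V shScram and 10.5 to 15.6 CPM in HrasG12V shEif2b5, and in RNA 11.2 to 15.2, 17.2 to 25.0 and 14.1 to 14.6 CPM. Of these markers 3 were tested in footprints and 2 in RNA, and 0 were called between HrasG12V shScram and WT. Summed dermal fibroblast markers overlapped between all groups in footprints (2253 to 3668 CPM in WT, 2392 to 3289 CPM in HrasG12V shScram). In RNA they were 802 to 2503, 975 to 1616 and 831 to 915 CPM in WT, HrasG12V shScram and HrasG12V shEif2b5. The 2 HrasG12V groups thus did not overlap in RNA. With the Eif2b5 shRNA the median log2 difference was -0.66 over 11 tested fibroblast markers in footprints and -0.58 over 7 in RNA, with 0 called. The part of T cells or fibroblasts in the Thy1 values was not tested.

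Emb (13:117208536-117274415, plus strand) encodes embigin, an immunoglobulin-family partner that brings monocarboxylate transporters to the cell surface. Footprint levels were 36.3, 27.9 and 40.1 CPM in WT and 75.6, 67.5 and 71.9 CPM in HrasG12V shScram, with 72.8, 59.6 and 59.4 CPM in HrasG12V shEif2b5. The WT libraries lay below all others, and the 2 HrasG12V groups overlapped. Emb RNA was 10.1, 8.55 and 9.40 CPM in WT and 33.0, 27.8 and 33.7 CPM in HrasG12V shScram, with 18.51, 25.5 and 19.3 CPM in HrasG12V shEif2b5, so that the 3 groups did not overlap and the shEif2b5 group lay between the others. The excess of HrasG12V shScram over WT was 2.07-fold in footprints and 3.39-fold in RNA. With the Eif2b5 shRNA the RNA difference was -0.59 (SE 0.20), short of the threshold (edgeR adjusted p = 0.059). It passed only when HrasG12V shScram replicate 2 was left out (adjusted p = 0.0251), and was -0.39 without the 2 libraries that lay apart. The footprint difference was -0.16 (SE 0.14) (adjusted p = 0.994). The coding gene Gm17509 on the other strand shares 109 coding bases with Emb.

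Lipk (19:34008290-34047835, plus strand) encodes an acid lipase of keratinocytes from a cluster with Lipn and Lipm, genes of late differentiation. Its footprint level was 9.76, 23.1 and 8.76 CPM in WT and 20.7, 19.9 and 31.1 CPM in HrasG12V shScram, with 18.7, 23.2 and 20.2 CPM in HrasG12V shEif2b5. WT library 2 lay within the HrasG12V range and the other two WT libraries well below it, so the footprint groups overlapped. Without that library the HrasG12V shScram footprint difference from WT was a log2 of 1.37 in place of 0.77. RNA levels were 1.62, 4.66 and 1.99 CPM in WT and 11.3, 9.99 and 17.5 CPM in HrasG12V shScram, with 3.70, 5.67 and 4.70 CPM in HrasG12V shEif2b5, from 27, 158 and 36 reads in all. The scrambled HrasG12V group stood alone, 4.97-fold above WT (log2 2.31 (SE 0.39)), and the shEif2b5 libraries overlapped WT. Lipk RNA fell by 1.48 on the log2 scale between the HrasG12V groups (SE 0.37, 2.79-fold lower, edgeR adjusted p = 0.0171). This call was lost without HrasG12V shEif2b5 replicate 1 (adjusted p = 0.0857) or 3 (0.0772), without HrasG12V shScram replicate 3 (0.0916), and without the 2 libraries that lay apart (log2 -1.08, adjusted p = 0.479). The footprint difference was -0.21 (SE 0.30) with an interval of -0.87 to 0.45, and the change of translation efficiency, 1.27 (SE 0.49), did not pass (adjusted p = 0.156).

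The summed RNA of granular and cornified layer markers did not separate the groups in which Lipk RNA differed. The sum was 3135 to 7955 CPM in WT, 3246 to 7172 CPM in HrasG12V shScram and 3977 to 5867 CPM in HrasG12V shEif2b5, over 13 genes. Lor made up much of it, at means of 2948, 2113 and 2815 CPM in the same order. Per gene, the median log2 difference of the 11 tested was 0.04 for HrasG12V shScram against WT, beside 0.01 over all genes. With the Eif2b5 shRNA it was -0.45, beside -0.01. Of the 11 tested, 0 were called between HrasG12V shScram and WT and 2 fell with the Eif2b5 shRNA, or 0 called without the 2 RNA libraries that lay apart. Summed basal markers did differ, at 13003 to 17524 CPM in WT RNA, 8930 to 12213 CPM in HrasG12V shScram RNA and 13667 to 15858 CPM in HrasG12V shEif2b5 RNA. In RNA they were thus low in the group in which Lipk and Plet1 RNA were high. In footprints HrasG12V shScram, at 11079 to 15282 CPM, overlapped both WT (9497 to 13800 CPM) and HrasG12V shEif2b5 (14366 to 16352 CPM). Of 9 basal markers, 1 was called lower in HrasG12V shScram than in WT in RNA and 0 in footprints. With the Eif2b5 shRNA 2 were called higher in RNA and 0 in footprints. These RNA calls did not hold without the 2 RNA libraries that lay apart, which leaves 1 RNA library in HrasG12V shScram. The part of basal markers in the Lipk and Plet1 differences was not tested.

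Pla2g4e (2:120166412-120245335, minus strand) encodes cytosolic phospholipase A2 epsilon, an acyltransferase that makes N-acyl phosphatidylethanolamines. It had the highest footprint estimate of the set for the Eif2b5 shRNA. Its footprints were at 5.02, 4.99 and 4.01 CPM in WT and 13.6, 9.56 and 12.8 CPM in HrasG12V shScram, with 9.45, 25.2 and 29.4 CPM in HrasG12V shEif2b5. Of the shEif2b5 libraries, 2 lay above all others and library 1 lay below the scrambled range. RNA levels were 6.88, 10.1 and 2.89 CPM, 29.4, 13.3 and 18.1 CPM and 11.8, 15.6 and 16.4 CPM in the same order, with the HrasG12V groups overlapping. The footprint difference between the HrasG12V groups was 0.82 (SE 0.33) and did not pass (edgeR adjusted p = 0.994, unadjusted p = 0.0266). Without HrasG12V shEif2b5 replicate 1 it was 1.18 and passed (adjusted p = 0.0159). Differentiation markers also split among the HrasG12V shEif2b5 footprint libraries. From lowest to highest, summed spinous markers were at 23039, 68921 and 69922 CPM, and granular and cornified markers at 2192, 4912 and 5040 CPM. The part of such markers in the Pla2g4e values was not tested. The RNA difference was -0.53 (adjusted p = 0.307) and turned to 0.13 without the 2 RNA libraries that lay apart. The change of translation efficiency, 1.34 (SE 0.53), was the highest of the set but did not pass (adjusted p = 0.173). Without those libraries it was 0.68 (adjusted p = 0.85), below that of Plet1.

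Ehd3 (17:73804134-73832094, plus strand) belongs to the EHD family of membrane-shaping ATPases and works in endosomal recycling. Footprints were at 3.35, 2.95 and 1.00 CPM in WT and 19.8, 12.8 and 14.3 CPM in HrasG12V shScram, with 9.25, 12.0 and 14.0 CPM in HrasG12V shEif2b5. In the same order of groups, RNA values were 1.62, 1.17 and 2.71, then 14.1, 10.5 and 12.7, then 21.8, 13.1 and 18.8 CPM. WT was far below both HrasG12V groups in both readouts, 6.44-fold lower in footprints and 6.20-fold lower in RNA than HrasG12V shScram, from 29 footprint and 22 RNA reads in the 3 WT libraries. The HrasG12V groups overlapped in both. With the Eif2b5 shRNA the estimates had opposite signs, -0.42 (SE 0.26) in footprints and 0.49 (SE 0.27) in RNA, and none passed (edgeR adjusted p = 0.994 and 0.229). The change of translation efficiency was -0.92 (SE 0.39) (adjusted p = 0.194). Without the 2 RNA libraries that lay apart the RNA estimate was 0.76 (adjusted p = 0.52) and that of translation efficiency -1.18 (adjusted p = 0.597).

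Fgd5 (6:91978878-92076004, plus strand) encodes an exchange factor that loads the GTPase Cdc42 with GTP and is best known from endothelial cells. Its footprint values were 2.51, 2.95 and 1.00 CPM in WT and 11.1, 10.7 and 6.72 CPM in HrasG12V shScram, with 9.65, 8.25 and 3.78 CPM in HrasG12V shEif2b5, with both HrasG12V groups above WT. RNA values were 8.50, 5.83 and 5.61 CPM, 19.9, 19.99 and 14.9 CPM and 27.8, 24.8 and 30.1 CPM, and here the shEif2b5 libraries lay above the scrambled ones as well. That RNA difference, 0.60 (SE 0.22), did not pass (edgeR adjusted p = 0.0712). It passed without HrasG12V shScram replicate 2 (0.66, adjusted p = 0.04) and was 0.46 without the 2 libraries that lay apart (adjusted p = 0.598). Footprints differed by -0.38 (SE 0.34) and translation efficiency by -0.99 (SE 0.41), neither past the test (adjusted p = 0.994 and 0.176). Summed endothelial markers, 12 genes with Pecam1, Cdh5 and Kdr among them, overlapped between WT and HrasG12V shScram. They were 11.3 to 25.9 CPM and 15.8 to 23.8 CPM in footprints, where Sox17 was at 0 in every library, and 5.24 to 26.7 CPM and 16.1 to 20.5 CPM in RNA.

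Capn2 (1:182467260-182517608, minus strand), the catalytic subunit of the calcium-dependent protease m-calpain, was among the members with the most reads. Footprints were 60.2, 61.7 and 77.6 CPM in WT and 119, 116 and 140.3 CPM in HrasG12V shScram, with 133, 127 and 118 CPM in HrasG12V shEif2b5. RNA was 49.0, 45.5 and 58.4 CPM, 76.9, 100.5 and 94.1 CPM and 116, 92.9 and 98.6 CPM. WT lay below both HrasG12V groups in both readouts, by 1.88-fold in footprints and 1.75-fold in RNA with the scrambled shRNA. Between the HrasG12V groups the footprint difference was 0.01 (SE 0.13) with an interval of -0.26 to 0.27, the narrowest of the 10 genes, and the RNA difference was 0.19 (SE 0.16) (edgeR adjusted p = 0.998 and 0.443), or 0.03 without the 2 RNA libraries that lay apart (adjusted p = 0.973). The antisense gene Gm37885 shares 290 coding bases with Capn2.

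Prr9 (3:92122204-92123947, minus strand) encodes a small proline-rich protein and lies in the epidermal differentiation complex, the gene cluster of cornified envelope proteins. Footprint levels were 17.8, 3.85 and 3.01 CPM in WT and 76.5, 69.4 and 60.3 CPM in HrasG12V shScram, with 47.3, 58.9 and 48.9 CPM in HrasG12V shEif2b5. In WT, library 1 was far above libraries 2 and 3, and without it the HrasG12V shScram difference from WT was a log2 of 4.30 in place of 3.11. The HrasG12V shEif2b5 libraries lay below all scrambled ones. The same order was seen in RNA, at 17.4, 4.66 and 9.58 CPM in WT and 58.6, 37.2 and 50.5 CPM in HrasG12V shScram, with 35.2, 34.0 and 35.2 CPM in HrasG12V shEif2b5. The differences with the Eif2b5 shRNA were -0.41 (SE 0.41) in footprints and -0.51 (SE 0.26) in RNA and did not pass (edgeR adjusted p = 0.994 and 0.191). In RNA it was -0.09 without the 2 libraries that lay apart (adjusted p = 0.952). Granular and cornified markers, summed over 13 genes, overlapped between the groups in footprints (2130 to 4563 CPM in WT, 3127 to 3547 CPM in HrasG12V shScram, 2192 to 5040 CPM in HrasG12V shEif2b5).

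Fam167a (14:63436394-63465498, plus strand) had the lowest mean footprint level of the 10 in all 3 groups in CPM, a scale without coding length, at 2.23, 1.59 and 1.503 CPM in WT and 4.46, 4.64 and 4.26 CPM in HrasG12V shScram, with 4.02, 4.46 and 4.004 CPM in HrasG12V shEif2b5. WT lay lowest, on 21 reads in all, and the HrasG12V groups overlapped within a narrow range. RNA values were 12.5, 6.99 and 11.4 CPM, 27.3, 22.8 and 18.3 CPM and 33.7, 28.4 and 39.5 CPM, with WT lowest and the shEif2b5 libraries above all others. The RNA difference between the HrasG12V groups, 0.56 (SE 0.23), and the footprint difference, -0.10 (SE 0.33), did not pass (edgeR adjusted p = 0.104 and 0.994). Fam167b, the other gene of the family, had next to no reads in any group, with a highest mean of 0.135 CPM in WT RNA.

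**Figure D2:**
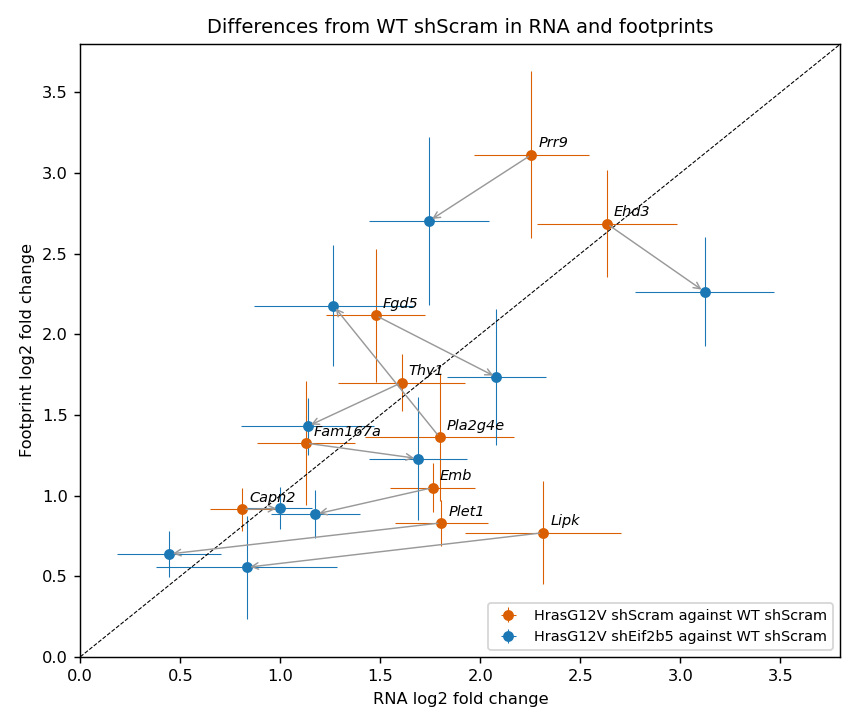
Log2 differences of the 10 genes from WT shScram in footprints and in RNA, for HrasG12V shScram and HrasG12V shEif2b5, with the standard errors of the edgeR model as bars. Both comparisons share the WT libraries, and all values are above 0 because the genes were chosen that way; Plet1 moves from an RNA difference of 1.80 to 0.44 and Lipk from 2.31 to 0.83, while their footprint differences move from 0.83 to 0.64 and from 0.77 to 0.55.

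The Eif2b5 shRNA was compared with the scrambled shRNA inside HrasG12V, the comparison that did not enter the choice of genes. The libraries of both HrasG12V groups did enter the choice, however, through their excess over WT. Chance highs in either group can therefore shift this comparison, and the direction of such a shift is not known. In footprints 0 of the 10 genes were called by edgeR, as were 0% of the 11448 tested genes, of which 519 (4.53%) had an unadjusted p under 0.05, among the 10 genes Pla2g4e alone. The DESeq2 Wald test called 1 gene and 0 of the 10. The 3 libraries lay below the other 3 in 2 genes, Prr9 and Thy1 (5.59% of all genes), and above them in 0 (5.5%). In RNA 2 of the 10 fell, Plet1 and Lipk, and 0 rose, where 13% of 11096 tested genes were called, 7.79% lower and 5.23% higher. RNA libraries separated in 6 of the 10: Prr9, Plet1, Emb and Lipk lay lower (15.2% of all genes) and Fgd5 and Fam167a higher (13.4%). For translation efficiency 1 of the 10 was called, Plet1, upward, against 1.8% of 10793 genes called upward and 2.11% in either direction. The median over the 10 genes was -0.20 in footprints, -0.49 in RNA and 0.14 in translation efficiency, beside 0.00, -0.01 and 0.03 over all genes.

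The intervals limit how alike the 2 HrasG12V groups were in footprints. For the more abundant members they were narrow: the 95% interval of the log2 difference was -0.26 to 0.27 in Capn2, -0.48 to 0.09 in Plet1, -0.46 to 0.13 in Emb and -0.61 to 0.07 in Thy1. For Prr9 it reached from -1.39 to 0.57 and for Fgd5 from -1.10 to 0.33, so that a log2 difference of -1 lay within both. Without the 2 RNA libraries that lay apart, the RNA calls over all genes went from 1444 to 17 and those among the 10 genes from 2 to 1, Plet1, on the strength of a single HrasG12V shScram RNA library.

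**Figure D3:**
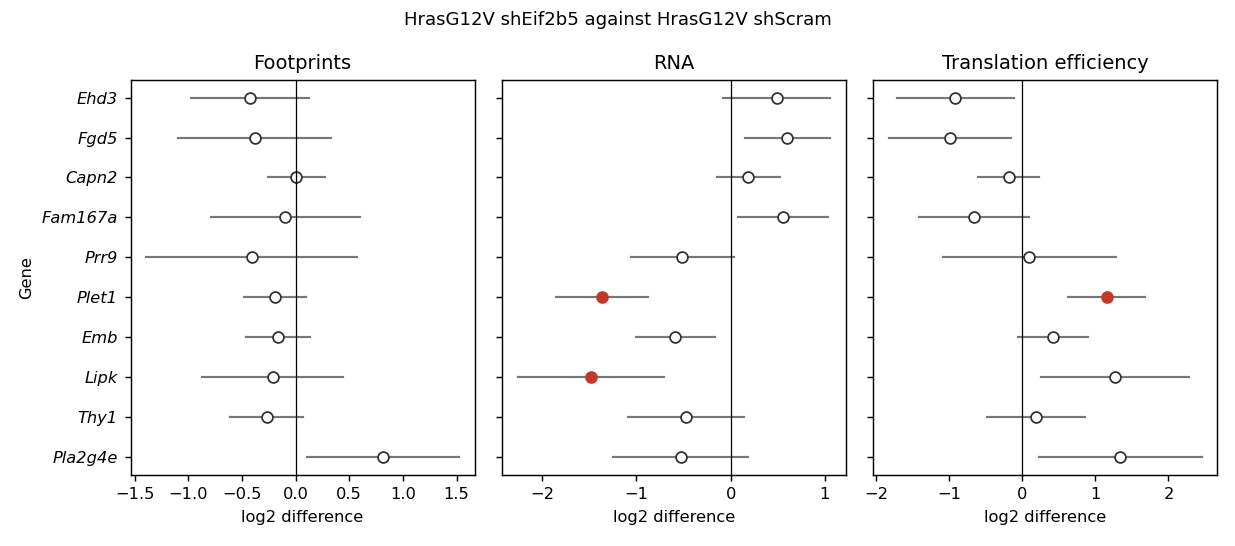
Log2 difference between HrasG12V shEif2b5 and HrasG12V shScram for each of the 10 genes in footprints, RNA and translation efficiency, with 95% intervals from the edgeR model; filled points passed an adjusted p of 0.05. The calls are the RNA of Plet1 and Lipk, both lower, and the translation efficiency of Plet1, higher; all footprint intervals but that of Pla2g4e include 0.

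How many footprints a gene had for its RNA was not used to choose the genes, and it spread widely among them. The log2 ratio of footprint to RNA level in WT was 3.05 (SE 0.20) in Plet1, higher than in 99.8% of tested genes, and 2.42 (SE 0.41) in Lipk, 1.96 (SE 0.28) in Thy1 and 1.89 (SE 0.19) in Emb. All 4 of these encode proteins that enter the secretory pathway, as surface proteins or as a lipase. The share of such genes among all tested genes was not counted, and a link to the ratio was not tested. At the other end stood Fam167a, at -2.55 (SE 0.32, percentile 2.63), and Fgd5, at -1.57 (SE 0.40, percentile 11.5). Ehd3, Capn2, Prr9 and Pla2g4e lay between -0.38 and 0.37, near the median of all genes, -0.01. The lowest and the highest gene were the same in the HrasG12V groups, which do not share libraries with WT: Fam167a was lowest of the 10 in all 3 groups and Plet1 highest, at 2.07 (SE 0.17) in HrasG12V shScram and 3.22 (SE 0.19) in HrasG12V shEif2b5. In HrasG12V shScram, Thy1 at 2.03 (SE 0.22) lay within the error of Plet1, and Lipk was only the fourth at 0.86 (SE 0.30), or 1.28 (SE 0.53) without the 2 RNA libraries that lay apart. With the Eif2b5 shRNA Lipk was at 2.13 (SE 0.37).

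**Figure D4:**
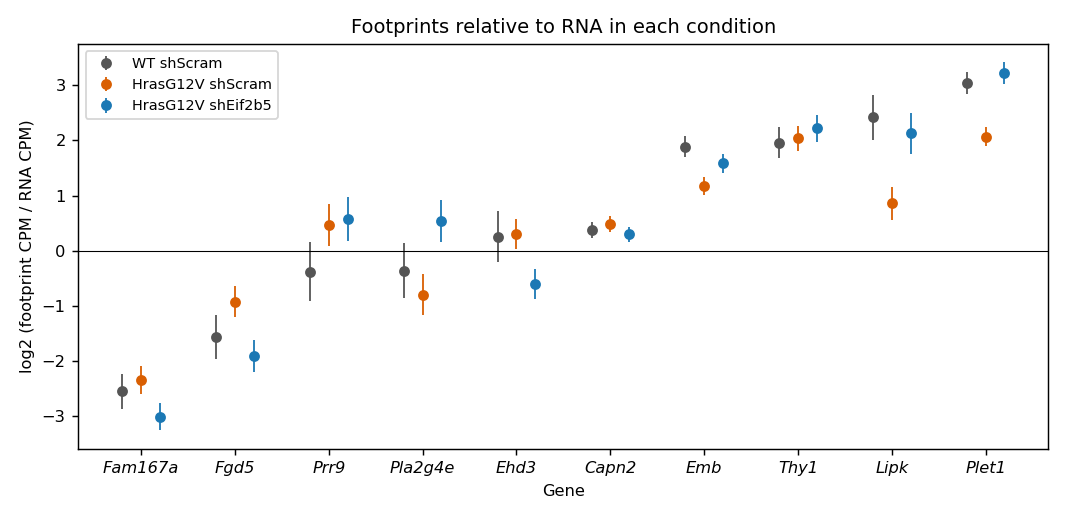
Log2 ratio of footprint to RNA level for each of the 10 genes in the 3 groups, with standard errors from the model over all 18 libraries, and a line at a log2 ratio of 0. Plet1, Lipk, Thy1 and Emb lie above the line in every group, and Fam167a and Fgd5 below it.

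Upstream start codons in the 5′ UTR can take ribosomes before they reach the coding sequence, and eIF2B activity is known to change how often they do. Of the 10 genes, 5 had at least 1 ATG in the annotated 5′ UTR of the transcript used, 50% against 50.5% of 19780 genes. Plet1, with the highest ratio, had 0 in a 5′ UTR of 38 bases, and Thy1 had 0 in 118. Fam167a, with the lowest ratio, had 8 in 725 bases. Emb, however, combined a high ratio with 5 upstream ATGs in 577 bases, and Fgd5 a low one with 0 in 152. Ehd3 had 4 in 402 bases, Pla2g4e 1 in 428 and Lipk 1 in 93, while Capn2 (170 bases) and Prr9 (55 bases) had 0.

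Levels were set against each other per kilobase (kb) of coding sequence, as a mean over the 3 libraries of a group. In HrasG12V shScram footprints the order was Prr9 (197 CPM per kb), Plet1 (168), Thy1 (139), Emb (63.3), Capn2 (59.7), Lipk (19.7), Ehd3 (9.77), Fam167a (6.90), Pla2g4e (4.56) and Fgd5 (2.09). Prr9 and Plet1 overlapped between their libraries, as did Emb and Capn2, and the other neighbours in this order did not. In WT footprints Plet1 led at 94.5 CPM per kb, apart from Thy1 at 43.1, and Prr9 was only the fifth at 23.7, with libraries from 8.64 to 51.3. Fgd5 was lowest in footprints in all 3 groups. RNA gave another order: in HrasG12V shScram Prr9 led at 140.2 CPM per kb, and Capn2 (43.1), Plet1 (40.7), Fam167a (35.4) and Thy1 (34.6) followed with each overlapping the next. The lowest RNA levels there were those of Pla2g4e (7.73) and Fgd5 (4.02), which did not overlap.

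Genes related to the members by family or function were counted in HrasG12V shScram against WT, where 1.7% of all genes were called in footprints and 7.7% in RNA. Of the 15 related genes called in RNA, Capns1 and Ptges were still called without the 2 libraries that lay apart. The other 13 lost the call and kept their direction, with a median absolute log2 difference of 0.72 with and 0.59 without those libraries. The lipid mediator genes around Pla2g4e held Ptges, the prostaglandin E synthase. It rose 2.60-fold in footprints (14.8 ± 3.65 to 38.7 ± 6.75 CPM, SD, n = 3, edgeR adjusted p = 0.000812) and 3.15-fold in RNA (adjusted p = 0.00247, and 3.36-fold with adjusted p = 0.0382 without the 2 libraries). It was the 1 called of 21 in footprints, and in RNA 3 of 17 rose, Ptges3 among them, and 1 fell, the lipoxygenase Alox12. Capns1, the regulatory subunit that pairs with Capn2, rose 2.05-fold in RNA (35.9 ± 0.523 to 73.9 ± 7.54 CPM, adjusted p = 0.0023, and 0.035 without the 2 libraries) as the 1 called of 10 calpain genes. Its footprints stood at 131 ± 7.93 and 171 ± 7.47 CPM, with groups apart but adjusted p = 0.112, and 0 of 9 calpain genes were called there.

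For Ehd3, the list of EHD proteins and endocytic recycling genes had 1 of 19 called higher in footprints, the GTPase Arf6 (1.68-fold, edgeR adjusted p = 0.0191), and in RNA 1 higher and 2 lower, Rab11fip3 and Rab4a. Arf6 RNA had the opposite sign, at a log2 of -0.30, and was not called (edgeR adjusted p = 0.222). For Fgd5, 0 of 22 FGD and Cdc42 effector genes were called in footprints and 1 of 21 in RNA, Cdc42bpb, which fell by 0.59 on the log2 scale (adjusted p = 0.0185). For Prr9, 1 of 16 genes of the epidermal differentiation complex was called in footprints, Sprr1a, which fell by 1.23 (adjusted p = 0.021), although the median of the 16 was 1.01, and in RNA 2 of 15 rose, Kprp and Rptn. For Plet1, Krt17 rose in footprints (1.58-fold, adjusted p = 0.0303) as 1 of 9 genes of the upper hair follicle, and Cst6 in RNA as 1 of 8. Without the 2 RNA libraries that lay apart, the RNA log2 difference was 1.03 in Sprr1a and -0.06 in Krt17, opposite in sign to their footprints. For Lipk, 0 of 21 acid lipase and barrier lipid genes were called in footprints and 3 of 20 rose in RNA, Abca12, Nipal4 and Cers3. With the Eif2b5 shRNA 7 of these 20 fell in RNA and 0 rose, which became 0 called without the 2 libraries. Among relatives of Emb (10 and 9 genes) and of Thy1 (20 and 16 genes of GPI-anchored proteins) 0 were called in footprints or RNA. Bsg, the basigin gene, stood at 452 ± 35.6 CPM in WT and 481 ± 13.6 CPM in HrasG12V shScram footprints, and Ly6d at 707 ± 161 and 679 ± 75.3 CPM.

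The members lie on 9 chromosomes, and within 250 kb of them 48 other genes of the table were found. Of these, 2 of 45 tested rose in footprints in HrasG12V shScram against WT, and in RNA 3 of 43 rose and 1 fell. Beside Lipk, Ankrd22 (73.6 kb away) rose 1.92-fold in RNA (edgeR adjusted p = 0.0232) and fell by 1.15 with the Eif2b5 shRNA (adjusted p = 0.00932), in the same directions as Lipk. Lipm (53.1 kb) also fell with the Eif2b5 shRNA, by 1.06 (adjusted p = 0.00393). Without the 2 RNA libraries that lay apart these calls were lost, with Ankrd22 at log2 0.84 and -1.05 (adjusted p = 0.349 and 0.303) and Lipm at -0.85 (adjusted p = 0.196). Lor, which encodes the envelope protein loricrin 39.1 kb from Prr9, overlapped between groups, at 750.3 ± 542 CPM in WT and 584 ± 97.6 CPM in HrasG12V shScram footprints. Pla2g4f, 54.6 kb from Pla2g4e, was at means of 35.7 CPM in WT and 41.9 CPM in HrasG12V shScram footprints and was not called (log2 0.23, SE 0.37, adjusted p = 0.855). Near Capn2, Degs1 (184.5 kb) rose 2.39-fold in RNA (edgeR adjusted p = 0.000595), or 2.31-fold without the 2 libraries. Degs1 footprints, at 1.31-fold, were not called (adjusted p = 0.203). With the Eif2b5 shRNA Degs1 RNA fell by 1.09 on the log2 scale (adjusted p = 0.00272), or 1.03 without the 2 libraries. Trp53bp2 (4.8 kb) fell by 0.49 in RNA (adjusted p = 0.0471), a call that was lost without them (log2 -0.38). Parp8, 183.0 kb from Emb, rose 1.77-fold in footprints (edgeR adjusted p = 0.0114). Its RNA, at 1.40-fold, was not called (adjusted p = 0.135), and had a log2 of -0.08 without the 2 libraries. Slc6a6, 219.8 kb from Fgd5, rose 1.52-fold in footprints and 1.55-fold in RNA (adjusted p = 0.0252 and 0.0289). There the RNA call was lost without the 2 libraries, at a fold of 1.77.

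As a description of likeness, Pearson's r was taken over the 18 libraries after each kind of library had been standardised, so the points share groups and libraries. The 5 other genes closest to the mean of the 10 were Tslp (0.977), Deptor (0.971), Etv4 (0.970), Wif1 (0.968) and Dusp6 (0.962). All 5 were called higher in HrasG12V shScram than in WT in both readouts. The choice of the 10 for such a rise favours genes of this kind, so no shared control is read from the likeness. For single members the closest gene was Etv4 for Ehd3 (0.941), Spry1 for Prr9 (0.953), Ctgf for Capn2 (0.954), S100a10 for Plet1 (0.914), Mfsd2a for Lipk (0.902) and Rptn for Pla2g4e (0.910). Between the members themselves r ran from 0.471 to 0.950 over 45 pairs, with a median of 0.774, which the choice of genes raised in advance.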

How the data were processed

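Per the submitters' processing notes, Bowtie, TopHat2 and HTSeq were used with mm10; versions and the strand setting of the counting are not given in the sources used here. The deposited table holds raw counts of reads over coding sequences, 1 row per gene symbol and 1 column per library, which the authors did not scale further as far as the values show. All 18 columns were used, and 0 other columns were left out. No pair of libraries in a group was a copy of the other: the chi-square divided by its degrees of freedom was 3.52 to 22.4.

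Counts were tested with the edgeR 4.0.16 quasi-likelihood test in R 4.3.3 (filterByExpr with a minimum count of 10 and a minimum total of 15, TMM scaling within each kind of library, robust dispersion), with 1 fit over the 9 libraries of a kind. Translation efficiency is the interaction of group and kind in 1 model over 18 libraries. P-values were adjusted by Benjamini-Hochberg over all tested genes of a comparison, and a gene was called under 0.05. CPM are TMM-scaled, and intervals cover 95%. With 3 libraries on each side the smallest two-sided p of an exact permutation test is 0.1, so none was used. The procedure was tested on simulated data in which every gene had the same dispersion and no library lay apart. That test therefore does not show how calls behave with libraries like those seen here.

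The members, the related gene lists, the marker lists and the motifs were chosen with earlier results of these data known. The text names the 10 members; from each related list up to 3 called genes with the smallest adjusted p in HrasG12V shScram against WT, or the most abundant gene where none was called; the 5 genes most like the members' mean and the one most like a member; and called or related genes within 250 kb of a member. The genotype label of WT shScram footprint library 1 reads Rosa26, unlike the other WT labels, and it was kept with WT by its title. The alternatives were DESeq2 1.42.0 size factors, no filter on low counts, one at 10 CPM on average, the DESeq2 Wald test, a replicate block and leaving out each library; leaving out HrasG12V shScram RNA libraries 1 and 3 together was chosen after seeing the data.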

Additional observations from a re-analysis of the deposited data

How the results depend on the processing

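With 3 libraries a group, counts of called genes moved widely when 1 library was left out, and the cause was not tested. For the Eif2b5 shRNA inside HrasG12V, 0 genes were called in footprints, 1 with no filter, 1 with the DESeq2 Wald test, 1 with the replicate block and 0 to 31 without 1 library (31 without HrasG12V shEif2b5 replicate 1), and of the 10 genes 0 to 1, Pla2g4e. In RNA 1444 genes were called, 197 to 3150 without 1 library (197 without HrasG12V shEif2b5 replicate 3, 3150 without HrasG12V shScram replicate 2) and 17 without the 2 libraries that lay apart, which leaves 1 library assumed to vary like the other groups. Of the 10 genes 2 were called in RNA, 1 to 4 without 1 library, 1 without those 2 libraries and 1 with the filter at 10 CPM, which removed Lipk. For translation efficiency 228 genes were called, 445 with the DESeq2 Wald test, 1 to 948 without 1 library (1 without HrasG12V shScram replicate 3, 948 without replicate 2) and 2 without the 2 libraries; of the 10 genes 1, 0 to 1 and 0 without the 2 libraries. Against WT, HrasG12V shScram had 195 footprint calls (73 to 559 without 1 library) and 854 RNA calls (189 to 2431, and 47 without the 2 libraries). HrasG12V shEif2b5 had 111 footprint calls (216 with no filter, 229 with the DESeq2 Wald test, 184 with the replicate block, 37 to 407 without 1 library) and 36 RNA calls (72 with no filter, 64 with the DESeq2 Wald test, 12 to 20 without 1 library).

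The differences that turned sign were Capn2 footprints (-0.0378 to 0.0966 without 1 library, below 0 without HrasG12V shEif2b5 replicate 1, HrasG12V shScram replicate 1 or 2), Lipk footprints (-0.32 to 0.0248, above 0 without HrasG12V shScram replicate 3), Pla2g4e RNA (0.13 without the 2 libraries) and Prr9 translation efficiency (-0.0282 to 0.241, below 0 without HrasG12V shEif2b5 replicate 2 or HrasG12V shScram replicate 3, and -0.32 without the 2 libraries). Plet1 RNA was called in 12 of 12 alternatives, at -1.52 to -1.29, Plet1 translation efficiency in 7 of 12 and Lipk RNA in 7 of 11. Replicate numbers are in the labels, but the deviations of same-numbered libraries correlated at -0.14 to 0.218 in footprints and -0.297 to 0.288 in RNA, over 0.1 in 2 of 9 pairs of each kind. Pairs with different numbers spanned -0.272 to 0.216 and -0.276 to 0.286. What same-numbered libraries share cannot be told from this. Footprint and RNA libraries of the same number were not compared, and the translation efficiency model took all 18 libraries as independent. With the replicate block the RNA of Plet1 and Lipk and the translation efficiency of Plet1 were still called. Ehd3, Fgd5 and Fam167a rest on under 30 footprint reads in WT, which limits the precision of their differences.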
